A study of Mus musculus with 18 samples.

Results

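A set of 34 genes known as targets or regulators of the tumour suppressor p53 was followed across 6 groups of mouse basophils and mast cells. Members were taken from a fixed gene list by the array's gene symbols. Of the 34 listed genes, 32 had a named probe, and where a gene had several (37 probes in all) the one with the highest 18-array mean was used. The array held 26423 probes naming 19084 genes. Trp53, which encodes p53, and Bax were not analysed here.

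RNA from C57Bl/6 mice was hybridised to single-dye microarrays, 3 arrays in each of 6 groups. The first group held basophils purified from bone marrow, without culture (fresh), 3 days after the animals received interleukin-3 complexed with its antibody. The second held mast cells grown from bone marrow in interleukin-3 (20 ng/ml) for 4 weeks. The remaining 4 were purified basophils cultured in interleukin-3 at the same concentration for 5 days, taken from animals labelled Cebpa +/+ RosaYFP/creER (wild type) or Cebpa f/f RosaYFP/creER (floxed), each with or without 100 nM 4-hydroxytamoxifen during those days. This drug switches on the creER recombinase, which then removes the floxed Cebpa alleles. Both genotypes carried the recombinase and the reporter, so drug exposure and recombinase activity came together in the treated wild type cells and cannot be told apart. The driver of the recombinase is not given beyond the allele's name. No genotype is given for the first 2 groups. The study set basophils beside mast cells and looked for genes that depend on Cebpa, a transcription factor of granulocytes and their precursors.

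The p53 protein is a transcription factor that is stabilised when DNA is damaged or a cell is otherwise stressed. It binds pairs of a short decamer near its target genes and raises genes that stop the cell cycle (Cdkn1a), feed back on p53 itself (Mdm2), or promote repair, autophagy or death. Many of these genes also answer to other regulators, and their levels differ between cell types.

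Promoter sequence was available for 24 of the 32 measured members, as 32 windows from 250 bases before to 50 after an annotated start (RefSeq, GRCm38.p6). The p53 consensus decamer was searched on both strands, alone without a mismatch or as a pair with at most 1 base between the copies, with the core C and G kept and mismatches counted over the 20 letters. A pair with at most 1 mismatch lay in 3 of the 32 members' windows (9.38%), those of Cdkn1a, Ccng1 and Rps27l, and in 0.11% of the 32851 windows of all genes. A pair with at most 3 mismatches lay in 7 of the members' windows (21.9%) against 2.82% of all windows, and a single exact decamer in 11 (34.4%) against 8.36%. The members were listed as p53 targets, so these shares describe the list and are no test. The sites below are pairs with at most 3 mismatches and, for Mdm2 and Ei24, a single exact decamer. Capitals mark the match, and not every member with a match is shown. The Cdkn1a site (chr17:29090908-29090967, plus strand) began 51 bases before a start with 1 mismatch:
Cdkn1a: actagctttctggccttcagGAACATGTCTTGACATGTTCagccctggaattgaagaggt
The Ccng1 site (chr11:40755442-40755501, minus strand) began 195 bases before a start with 1 mismatch:
Ccng1: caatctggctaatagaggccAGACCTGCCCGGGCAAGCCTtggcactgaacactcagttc
The Rps27l site (chr9:66946291-66946320, plus strand) began 117 bases before a start with 1 mismatch, and lay after another annotated start of the gene:
Rps27l: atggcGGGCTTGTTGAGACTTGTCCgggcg
The Sesn1 site (chr10:41887261-41887290, plus strand) began 173 bases before a start with 3 mismatches, also after another start:
Sesn1: ccttcAAGCTTGTTTTTGCTGGCCTggtcc
The Bbc3 site (chr7:16309481-16309510, plus strand) began 97 bases before a start with 3 mismatches, also after another start:
Bbc3: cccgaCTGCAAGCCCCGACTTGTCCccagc
Mdm2 (chr10:117710915-117710964, minus strand) and Ei24 (chr9:36797335-36797364, minus strand) held a single exact decamer 186 and 10 bases before a start:
Mdm2: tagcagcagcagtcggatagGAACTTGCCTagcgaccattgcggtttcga
Ei24: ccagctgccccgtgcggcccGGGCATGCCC
A match is a run of letters in this window, and p53 binding was not measured.

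Median intensity per array was 24 to 42 before normalisation. Of all probes 47.3% to 54.8% lay above 30, the level under which all 3 arrays of a group were taken as at background. Mean intensity before normalisation was 463 to 482 on treated and 558 to 597 on untreated wild type arrays. It was 502 to 525 on treated and 530 to 577 on untreated floxed arrays, 618 to 700 in fresh basophils and 461 to 480 in mast cells. Normalisation rescales such differences, and their part in the results was not tested. Levels are quantile-normalised intensities, differences are log2(intensity + 16) ± SE with 3 arrays a group, and a gene was called at a limma adjusted p under 0.05 over all 26423 probes. Whether the 3 replicates of a group were different animals or cultures is unknown, so the p-values reflect the spread among these arrays alone, which may be technical, and the number of arrays limits the precision. Cebpa read 2226 to 2973 on wild type cultured arrays, 935 to 1055 on untreated floxed arrays and 57.8 to 69.4 on treated floxed arrays, and the position of its probe relative to the deletion is unknown here. The basophil proteases Mcpt8 (37995 to 56723 over the 15 basophil arrays) and Prss34 (18905 to 49573) were bright in all basophil groups, the latter least in treated floxed cells, and Kit, the stem cell factor receptor of mast cells, read 16201 to 16928 in mast cells, 12227 to 15106 in treated floxed basophils and 260.3 to 5225 in the other basophil groups. In mast cells Mcpt8 read 9007 to 9833 and Prss34 1454 to 1636. In these bulk samples, fewer cells of a type and less RNA per cell cannot be told apart.

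Of the 32 measured members, 30 were above background in at least 1 group and 26 in all 6 groups. Mdm4, a p53 inhibitor related to Mdm2, and the sestrin Sesn3 were at background in every group, at mean levels of 3.7 to 11.4 and 2 to 7.7. Tnfrsf10b, a receptor for the death ligand TRAIL, was above 30 on 1 array only, of fresh basophils (35.3). Aen, an apoptosis-enhancing nuclease, averaged 14.6 to 27.6 and was called in 0 of the 8 comparisons by limma, with an unadjusted p under 0.05 in 0 as well. Levels of different probes are not compared with each other.

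In wild type basophils most p53 genes that changed were higher with 4-hydroxytamoxifen. Of 32 members, 17 were higher with the drug and 2 were lower, where 11.2% of all probes were called higher and 10.1% lower, and the members' median difference was 0.31 against 0.0061 over all probes. Among probes above background in either group, 17 of 29 members (58.6%) were higher against 18.5% of all such probes, and 2 (6.9%) lower against 17.1%. The rise included the arrest gene Cdkn1a, the p53 ligase Mdm2, the Akt repressor Phlda3 and the autophagy gene Ei24. Perp, a membrane protein of desmosomes and p53-dependent death, and the ribosomal protein gene Rps27l fell.

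Phlda3, whose protein blocks Akt at the membrane, changed most. Its level was 90.6, 99.9 and 101 on the 3 untreated wild type arrays and 295, 314 and 287 on the treated ones. The treated arrays all lay above the untreated ones, by 1.48 ± 0.098 on the log2 scale (adjusted p = 5.28e-08). Ei24, a protein of the endoplasmic reticulum needed for autophagy, read 476, 434 and 479 without and 966, 951 and 887 with the drug. These groups did not overlap either (0.99 ± 0.089, adjusted p = 1.12e-06), and a second Ei24 probe gave 0.95 (adjusted p = 4.52e-06).

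Among the genes of cell cycle arrest, Cdkn1a, which encodes the cyclin-dependent kinase inhibitor p21, read 2856, 2914 and 2696 without and 4125, 4279 and 4476 with the drug. The treated arrays were all higher (0.60 ± 0.084, adjusted p = 6.59e-05). Gadd45a, a stress-induced binder of growth-control kinases and proliferating cell nuclear antigen, went from 1961, 1827 and 1777 to 3566, 3623 and 3452 with no overlap (0.93 ± 0.081, adjusted p = 7.63e-07). Btg2, an antiproliferative cofactor of mRNA deadenylation that is also an immediate early gene, went from 161, 154 and 176 to 283, 310.5 and 261 (0.74 ± 0.099, adjusted p = 4.27e-05). A second, dimmer Btg2 probe was at background in 5 of the 6 groups and did not pass (0.28, adjusted p = 0.303). The polo-like kinases Plk2 (-0.016 ± 0.10) and Plk3 (-0.12 ± 0.092) were not called.

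Of the 7 genes that feed back on p53 or tune it, 5 rose, of which Mdm2 and Ccng1 did not pass under any of the 3 other scalings and Zmat3 under 1 of them only. Mdm2, the ubiquitin ligase that degrades p53, read 2079, 1962 and 2138 without and 2886, 2628 and 2285 with the drug. The groups did not overlap, but the difference was small (0.33 ± 0.11, adjusted p = 0.041). That call did not hold under the 3 other scalings (0.054 to 0.37, adjusted p 0.134 to 0.813) or without treated replicate 1 or 2 or any of the 3 untreated replicates (0.25 to 0.35, adjusted p 0.0663 to 0.178). Ccng1, a cyclin that brings a phosphatase to Mdm2, went from 4451, 4759 and 4140.3 to 5724, 5932 and 5552 (0.37 ± 0.083, adjusted p = 0.00395; under the other scalings 0.034 to 0.35, adjusted p 0.0586 to 0.875). Trp53inp1, a nuclear stress protein that aids p53, went from 1134, 1027 and 1093 to 1476, 1526 and 1597 (0.49 ± 0.075, adjusted p = 1.52e-04). Neither gene's groups overlapped, and the phosphatase Ppm1d (0.39 ± 0.091) and the RNA-binding protein Zmat3 (0.30 ± 0.10, adjusted p = 0.0492) also passed; median scaling (adjusted p = 0.072) and no between-array normalisation (0.44) each lost Zmat3. Rps27l, which encodes a ribosomal protein paralogue that binds Mdm2 and whose promoter match had as many mismatches as that of Cdkn1a, fell from 3804, 4242 and 4395 to 2577, 2522 and 2966 (-0.62 ± 0.099, adjusted p = 2.18e-04).

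Of 9 genes of cell death and autophagy, 6 rose with the drug in wild type cells: Phlda3, Ei24, Pmaip1, Apaf1, Pidd1 and Dram1. Pmaip1, which encodes the BH3-only protein Noxa, went from 282, 281 and 282 to 435, 445 and 457 with no overlap (0.63 ± 0.10, adjusted p = 2.19e-04). Apaf1, the scaffold of the apoptosome, rose by 0.53 ± 0.11 and Pidd1, the platform of caspase-2, by 0.46 ± 0.096. Bbc3, which encodes the BH3-only protein Puma, was not called (-0.11 ± 0.10; 95% interval -0.33 to 0.10). Perp fell from 4929.5, 5841 and 5044 to 3470.00, 3267 and 3736 (-0.59 ± 0.10, adjusted p = 5.48e-04), with all treated arrays below all untreated ones.

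Among the sestrins, which restrain mTORC1 under stress, Sesn1 rose from 696, 647 and 637 to 1038, 1092 and 1049 with no overlap (0.67 ± 0.081, adjusted p = 1.82e-05), whereas Sesn2 was not called (-0.13 ± 0.13). Of 5 DNA repair genes only the lesion sensor Xpc passed (0.42 ± 0.13, adjusted p = 0.0258). The translesion polymerase Polk (95% interval, unadjusted, 0.024 to 0.39) and the ribonucleotide reductase subunit Rrm2b (-0.23 to 0.24) did not. Of 3 death receptors, Eda2r passed (0.37 ± 0.12, adjusted p = 0.0367) at a level close to background and with overlapping arrays (22.2 to 38.5 without, 34.3 to 47.8 with the drug), and Fas did not (-0.20 ± 0.10).

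The number of rises depended on the scaling: median scaling gave 13 higher and 2 lower, scaling to probes above background 14 and 2, and no between-array normalisation 8 and 5. Phlda3, Ei24, Gadd45a, Btg2, Sesn1, Pmaip1, Cdkn1a and Pidd1 were the 8 higher in the last case; besides Mdm2, Zmat3 lost its call without untreated replicate 1 or 3 or treated replicate 2 or 3 (adjusted p up to 0.195), Eda2r without untreated 2 or 3 or treated 1 or 2 (up to 0.181), Xpc whichever array except untreated 2 was left out (up to 0.122) and Dram1 without untreated 3 or treated 1 or 2 (up to 0.111). The other 14 called members kept their calls in all 6 such fits. Mast cell markers moved with the drug in wild type cells in both directions (5 of 11 higher, 4 lower; summed level 84697 to 86211 without and 89036 to 91083 with it), megakaryocyte markers upwards (4 of 7 higher, 0 lower) and neutrophil markers both ways (4 of 13 higher, 5 lower; 37418 to 39266 without and 25785 to 27184 with it). Immediate early and handling genes were 5 of 17 higher and 2 lower, with summed levels of 40034 to 42489 without and 50427 to 51095 with the drug. The part of these markers and genes in the result was not tested.

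**Figure D1:**
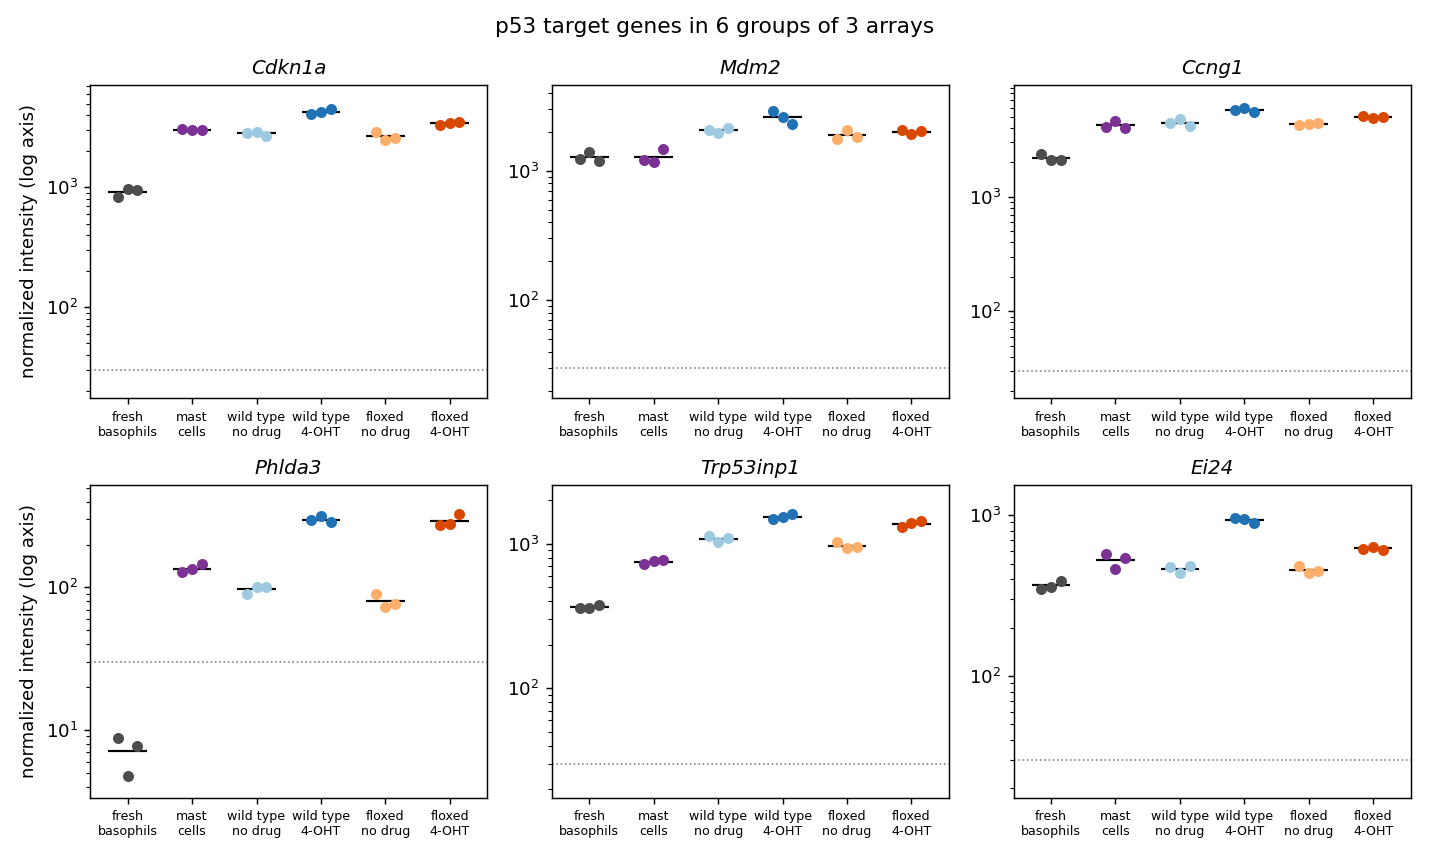
Normalised intensity (log axis) of 6 p53 targets on each of 18 arrays by group, with group means as bars and the background limit of 30 as a dotted line. All 6 genes were higher on the treated than on the untreated wild type arrays, and Phlda3 lay at background in fresh basophils.

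In floxed basophils, in which the Cebpa signal also fell to near that of mast cells, the p53 genes that changed split evenly. Of 32 members, 7 were higher with the drug and 7 lower, where 9.92% of all probes were called higher and 9.67% lower. The median difference of the members was 0.10, against -0.0027 over all probes. Among probes above background in either group, 7 of 29 members (24.1%) were higher against 16.4% of such probes, and 7 (24.1%) lower against 15.9%. Phlda3, Pidd1, Zmat3, Trp53inp1, Polk, Ei24 and Cdkn1a rose, and Perp, Sesn2, Gadd45a, Pmaip1, Btg2, Fas and Ercc5 fell.

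Phlda3 rose from 89.9, 73.1 and 76.9 to 273, 281 and 329 (1.69 ± 0.098, adjusted p = 1.97e-09). Pidd1 rose from 64.2, 61.1 and 59.4 to 104, 112 and 119 (0.72 ± 0.096, adjusted p = 3.35e-05). Both had all treated arrays above all untreated ones, as did Trp53inp1 (1024, 934 and 945 without, 1306, 1382 and 1439.8 with the drug; 0.50 ± 0.075). Cdkn1a read 2923, 2496 and 2572 without and 3341, 3469 and 3519.8 with the drug (0.37 ± 0.084, adjusted p = 0.00383). Its call was lost under the 3 other scalings (0.097 to 0.23, adjusted p 0.0509 to 0.763). Mdm2 was not called (0.098 ± 0.11, 95% interval -0.13 to 0.33).

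Perp fell most, from 3650.2, 3132 and 3184 to 389, 388 and 474 (-2.95 ± 0.10, adjusted p = 4.33e-12). Sesn2 fell from 202, 190.2 and 170.3 to 71.9, 61.8 and 78.1 (-1.23 ± 0.13, adjusted p = 1.95e-06). Gadd45a fell from 964, 909.8 and 868 to 477, 459 and 521 (-0.89 ± 0.081, adjusted p = 4.40e-07). In these genes and in Pmaip1 (260.00, 319.8 and 298 without, 159, 179.8 and 159 with; -0.76 ± 0.10) and Btg2 (116, 109 and 120.2 without, 62.6, 57.3 and 70.4 with; -0.72 ± 0.099) no treated array reached an untreated one. The second Btg2 probe, at background in both groups, was not called (-0.085, adjusted p = 0.814). The death receptor Fas fell by less (-0.48 ± 0.10), and so did the repair nuclease Ercc5 (-0.38 ± 0.11, adjusted p = 0.0176), whose call was lost without treated replicate 2 or untreated replicate 1 (adjusted p up to 0.0972).

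With median scaling 2 members were higher (Phlda3 and Pidd1) and 7 lower. Mast cell markers rose with the drug in floxed cells (8 of 11 higher, 0 lower; summed level 81030.03 to 82045 without and 136197 to 144354 with it, Tpsab1 at background in both) and neutrophil markers fell (1 of 13 higher, 10 lower; 19067 to 20976 and 18008 to 20747, with S100a8 at background in both and Ngp and Elane only in the treated cells). Megakaryocyte markers rose (6 of 7 higher, 0 lower). Basophil markers were 1 of 14 higher and 7 lower. Immediate early and handling genes were 4 of 17 higher and 1 lower, with summed levels of 30122 to 35181 without and 41778 to 42422 with the drug. The part of these markers and genes in the changes of the p53 genes was not tested.

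The difference between the drug's effect in floxed and in wild type basophils was tested as an interaction. Of 32 members, 10 had a lower effect in floxed cells and 2 a higher one, where 6.46% of all probes were called lower and 6.17% higher; the median was -0.21 against -0.0088 over all probes. Among probes above background in any of the 4 groups, 10 of 29 members (34.5%) were lower against 10.4% of such probes. On the same basis 1 (3.45%) was higher against 9.93%. Gadd45a, Btg2 and Pmaip1 rose with the drug in wild type cells and fell with it in floxed cells. Perp fell in both, by more in floxed cells.

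The difference of effects was -2.36 ± 0.15 for Perp (adjusted p = 1.59e-08), -1.82 ± 0.11 for Gadd45a (adjusted p = 1.68e-08) and -1.47 ± 0.14 for Btg2 (adjusted p = 2.18e-06). The second Btg2 probe, at background in these groups, was not called (-0.36, adjusted p = 0.405). The difference was -1.39 ± 0.14 for Pmaip1 (adjusted p = 4.77e-06) and -1.10 ± 0.18 for Sesn2 (adjusted p = 5.09e-04), which fell with the drug in floxed cells and was not called in wild type cells. Apaf1 (-0.74 ± 0.15), Sesn1 (-0.57 ± 0.11), Ppm1d (-0.56 ± 0.13) and Ei24 (-0.56 ± 0.13) also had lower effects in floxed cells. Ei24 rose in both genotypes, by less in floxed cells, and its second probe gave -0.56 (adjusted p = 0.0127). Apaf1, Sesn1 and Ppm1d rose with the drug in wild type cells and were not called in floxed cells. Dram1 passed at the edge (-0.53 ± 0.17, adjusted p = 0.0491).

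Several targets did not differ measurably in their drug effect. The difference was -0.23 ± 0.12 for Cdkn1a (95% interval -0.48 to 0.02), -0.23 ± 0.15 for Mdm2 (-0.56 to 0.096), 0.22 ± 0.14 for Phlda3 (-0.078 to 0.51) and 0.0072 ± 0.11 for Trp53inp1 (-0.22 to 0.23). These intervals do not show that the effects were equal, and with no between-array normalisation the difference for Phlda3 passed (0.50, adjusted p = 0.0343). Rps27l had a higher effect in floxed cells (0.78 ± 0.14, adjusted p = 0.00114), with means of 4467 and 4974 there, a call that median scaling lost (0.51, adjusted p = 0.171). Tnfrsf10b was called (0.79 ± 0.23) although it lay at background in all 4 groups.

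When each of the 12 arrays was left out in turn, 10 of the 12 calls held in every fit. Tnfrsf10b lost its call without untreated wild type replicate 1 or 3, treated wild type 3, untreated floxed 3 or treated floxed 1 or 3 (adjusted p up to 0.0856), and Dram1 whichever array except treated wild type 3 or treated floxed 2 was left out (up to 0.123). The split was 0 higher and 9 lower with median scaling and 3 higher and 5 lower with no between-array normalisation, and Perp, Gadd45a, Btg2, Pmaip1 and Sesn2 were the 5 lower in the latter.

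**Figure D2:**
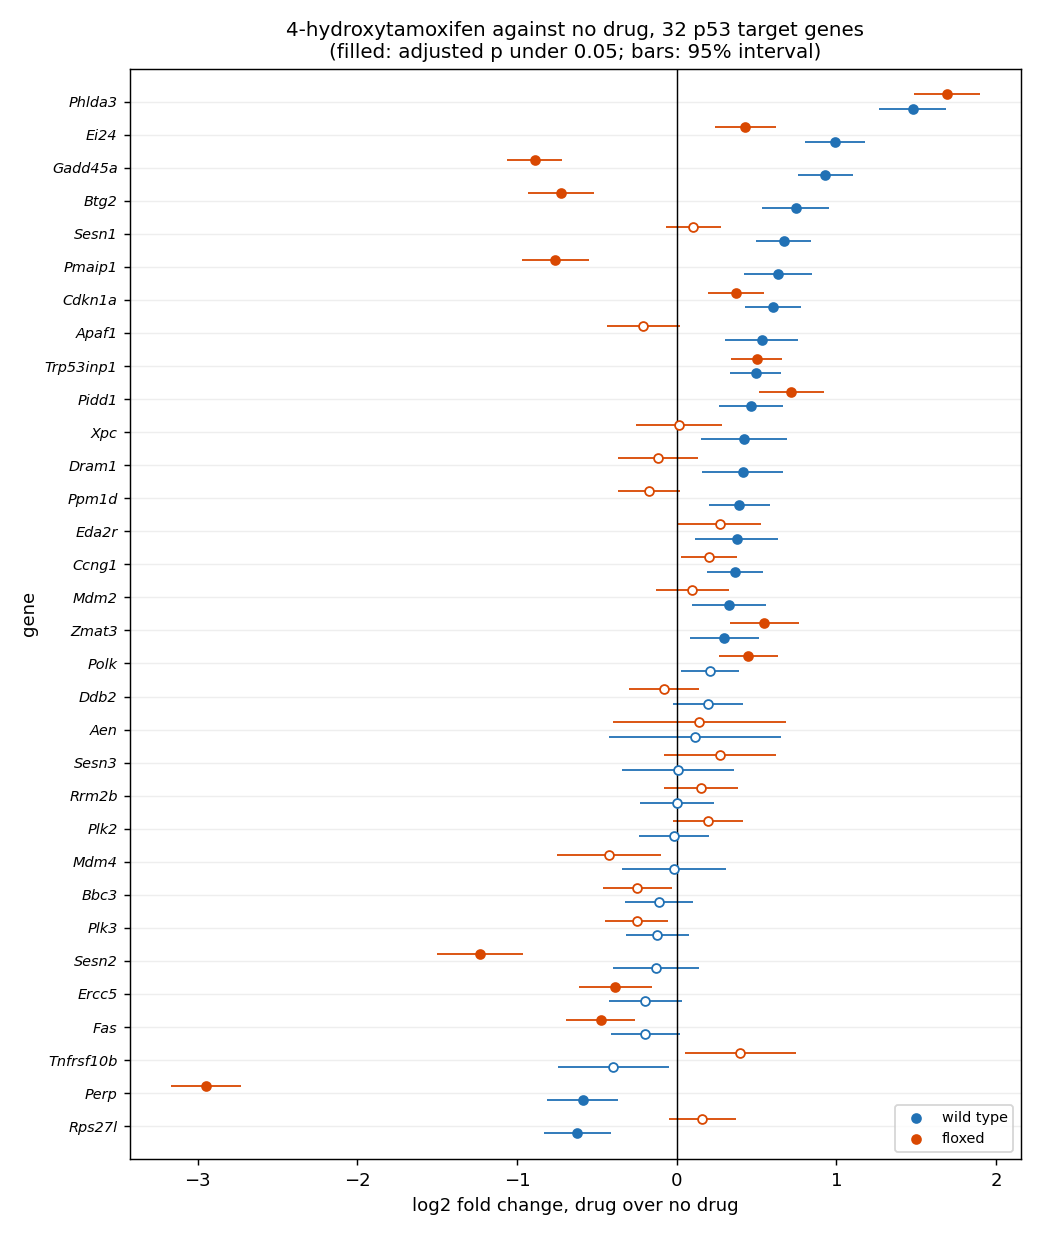
Drug effect (log2 difference, treated minus untreated, with 95% interval) of each measured member in wild type and floxed basophils; filled points passed at an adjusted p under 0.05. Phlda3 lay at 1.48 in wild type and 1.69 in floxed cells, while Gadd45a lay at 0.93 and -0.89.

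Treated floxed basophils were then set against treated wild type basophils. Of 32 members, 17 were lower in the floxed cells and 6 higher, where 14.9% of all probes were called lower and 15.9% higher. The members' median difference was -0.34, against -0.0041 over all probes. Among probes above background in either group, 16 of 29 members (55.2%) were lower against 23.9% of such probes, and 5 (17.2%) higher against 25.7%. This comparison shares its arrays with the drug comparisons above, so the values stand side by side and are not independent.

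Perp read 3470.00, 3267 and 3736 in wild type and 389, 388 and 474 in floxed cells (-3.02 ± 0.10, adjusted p = 1.45e-12). Gadd45a read 3566, 3623 and 3452 in wild type against 477, 459 and 521 in floxed cells (-2.83 ± 0.081, adjusted p = 1.63e-13). Btg2 read 283, 310.5 and 261 against 62.6, 57.3 and 70.4 (-1.92 ± 0.099, adjusted p = 1.98e-10), with a second probe at -0.13 (adjusted p = 0.652) that was at background in both groups. For each of the 3 genes every floxed array lay below every wild type array. Pmaip1 (-1.34 ± 0.10) and Sesn2 (-1.17 ± 0.13) followed, with means of 166 ± 12 against 446 ± 10.7 and 70.6 ± 8.21 against 179 ± 20.7 (SD, n = 3).

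Other members lower in treated floxed cells were Dram1, a lysosomal protein of autophagy (-0.94 ± 0.12), Fas (-0.79 ± 0.10), Xpc (-0.71 ± 0.13), Plk3 (-0.66 ± 0.092), Apaf1 (-0.62 ± 0.11), Ppm1d (-0.61 ± 0.091), Ei24 (-0.58 ± 0.089), Sesn1 (-0.45 ± 0.081) and Bbc3 (-0.38 ± 0.10). Cdkn1a (-0.32 ± 0.084, adjusted p = 0.0075) and Mdm2 (-0.36 ± 0.11, adjusted p = 0.0172) were lower by little. Both calls were lost with median scaling (adjusted p = 0.0603 and 0.0886) and with no between-array normalisation (0.0563 and 0.148), under which Bbc3 was also lost (-0.22, adjusted p = 0.232), and that of Mdm2 also without wild type replicate 1 or 2 or floxed replicate 2 (adjusted p up to 0.0927). Mdm4 passed too, at background in both groups and not without wild type replicate 2 or 3 or floxed replicate 1 or 2 (adjusted p up to 0.142).

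Polk was higher in treated floxed cells, at 580.3, 534 and 621 against 257, 278 and 282 (1.04 ± 0.086, adjusted p = 7.06e-08). Rps27l was higher, at 5119.7, 4662 and 5139.5 against 2577, 2522 and 2966 (0.89 ± 0.099, adjusted p = 2.43e-06). Zmat3 was higher, at 474, 430.4 and 499 against 260.2, 307 and 293 (0.68 ± 0.10, adjusted p = 6.62e-05). In all 3 genes the groups did not overlap. Plk2 (0.29) lost its call whichever of the 6 arrays was left out (adjusted p up to 0.128), and Pidd1 (0.26, arrays overlapping) without wild type or floxed replicate 2 or 3 (up to 0.184). Tnfrsf10b, at background in both groups, lost its call without wild type replicate 3 or floxed replicate 1 or 3 (up to 0.0807). None of these 3 passed with median scaling (adjusted p 0.0642 to 0.455).

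Without the drug the genotypes differed in fewer p53 genes: 6 of 32 members were lower and 3 higher in floxed cells, where 7.27% of all probes were called lower and 8.54% higher, with a median of -0.067 against 0.0023 over all probes. Among probes above background in either group, 6 of 29 members (20.7%) were lower against 12.1% of such probes, and 3 (10.3%) higher against 14.4%. Gadd45a read 1961, 1827 and 1777 in wild type and 964, 909.8 and 868 in floxed cells (-1.01 ± 0.081, adjusted p = 1.62e-07). Perp read 4929.5, 5841 and 5044 against 3650.2, 3132 and 3184 (-0.66 ± 0.10, adjusted p = 2.24e-04). Polk read 231, 221 and 250.3 against 442, 408 and 408 (0.80 ± 0.086, adjusted p = 4.74e-06). In each of these genes the groups did not overlap. Plk3 (-0.53), Fas (-0.51), Btg2 (-0.45) and Dram1 (-0.41) were also lower, and the lesion sensor Ddb2 (0.41) and Zmat3 (0.43) higher. The second Btg2 probe, at background in both groups, was not called (0.24, adjusted p = 0.442). Cdkn1a (-0.085 ± 0.084) and Mdm2 (-0.13 ± 0.11) were not called.

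Between untreated genotypes 4 members were higher and 2 lower with median scaling, against 2 and 8 with no between-array normalisation and, scaled on probes above background, 2 and 7. Gadd45a, Perp, Polk and Zmat3 passed under all 3. Dram1 lost its call without wild type replicate 1 or 2 or floxed replicate 2 or 3 (adjusted p up to 0.0832). Monocyte and macrophage markers were lower in floxed cells without the drug (1 of 11 higher, 9 lower) and with it (1 of 11 higher, 10 lower), with summed levels of 15037 to 16516 and 16586 to 17307 in untreated and treated wild type and 11649.6 to 12899 and 11401 to 11489 in untreated and treated floxed cells. Mast cell markers were 0 of 11 higher and 5 lower without the drug and 8 higher and 0 lower with it, and stem and progenitor markers 5 of 8 higher and 0 lower with it. Neutrophil markers were 1 of 13 higher and 7 lower without the drug and 2 higher and 10 lower with it (median -1.90), and megakaryocyte markers 0 of 7 higher with 5 and 4 lower. The part of these cells in the p53 genes' differences was not tested.

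**Figure D3:**
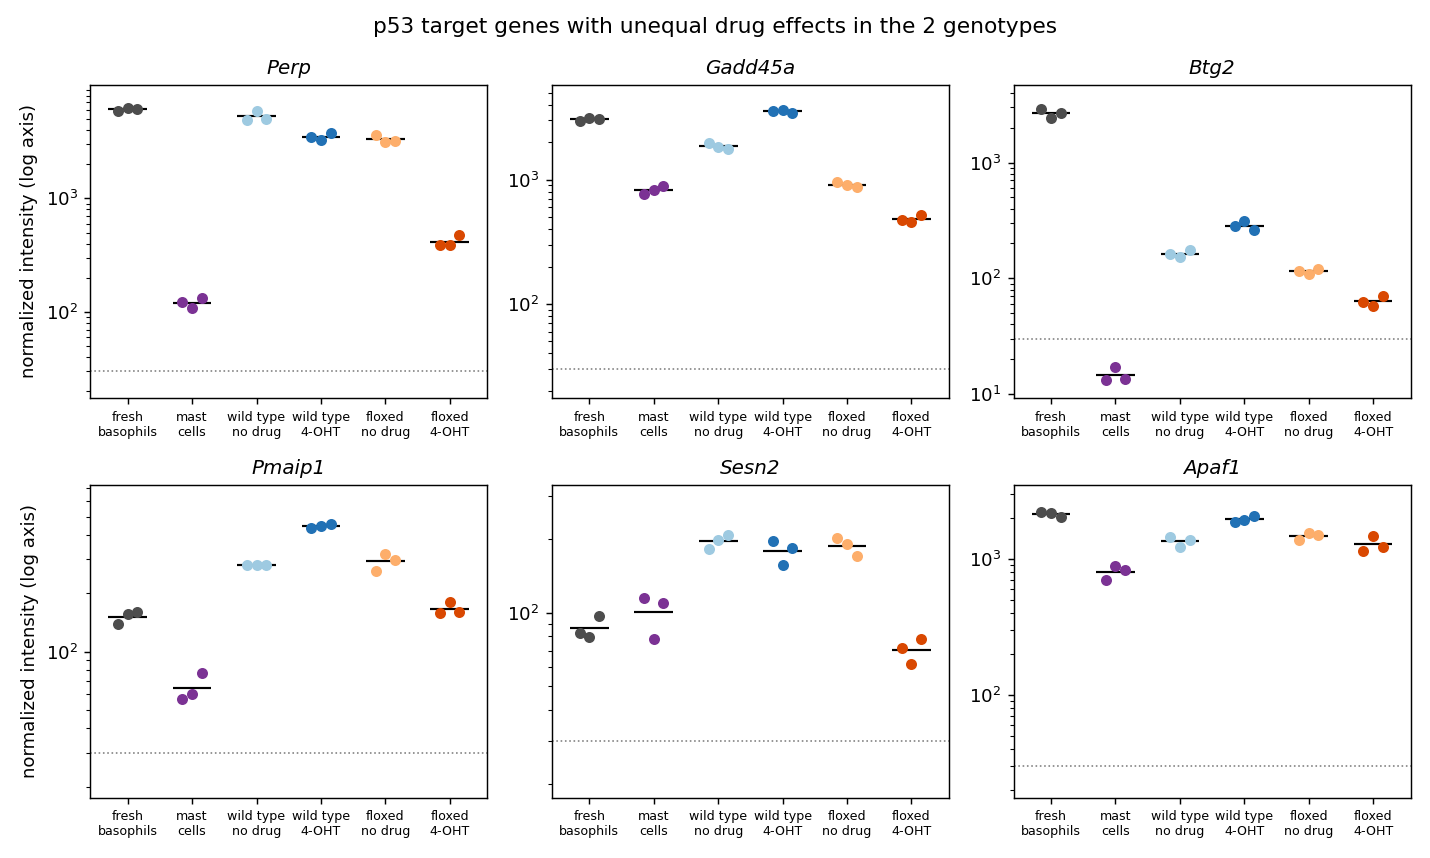
Normalised intensity (log axis) of 6 p53 targets with a lower drug effect in floxed than in wild type basophils, on each of 18 arrays by group, with group means as bars and the background limit of 30 as a dotted line. Treated floxed arrays lay lowest among the cultured basophils in all 6 genes except Apaf1, whose treated floxed arrays (1136 to 1464) overlapped both untreated groups.

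Cell type and culture were compared next, with culture history differing between the groups in each case. Fresh basophils differed from mast cells in both directions. Of 32 members, 12 were higher in basophils and 11 lower, where 18.3% of all probes were called higher and 22.3% lower. The median was -0.091 against -0.044 over all probes. Among probes above background in either group, 12 of 29 members (41.4%) were higher against 27.9% of such probes. On the same basis 11 (37.9%) were lower against 34%, a share close to that of the members. The arrest genes Btg2, Plk3, Gadd45a and Plk2 and the membrane protein gene Perp were higher in basophils, while the feedback genes Ccng1, Trp53inp1, Zmat3 and Rps27l and the arrest gene Cdkn1a were lower. Fresh basophils came straight from animals and mast cells from culture, which cannot be told apart from cell type here.

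Btg2 read 2929, 2403 and 2706 in fresh basophils and 13.2, 17.1 and 13.6 in mast cells, at background there, so that it was at least 89.3-fold higher in basophils (adjusted p = 5.69e-18). Perp read 5841, 6233 and 6164 against 122, 109 and 132 (5.48 ± 0.10, adjusted p = 6.16e-17). Plk3, a stress-activated kinase, read 852, 966 and 852 against 58.2, 70.4 and 52.1 (3.58 ± 0.092, adjusted p = 3.45e-15). The groups did not overlap in any of the 3 genes, nor in Gadd45a (2955, 3150.4 and 3101 against 766, 826 and 882; 1.88 ± 0.081). Apaf1 (1.40 ± 0.11), Plk2 (1.39 ± 0.10), Dram1 (1.33 ± 0.12), Pmaip1 (1.06 ± 0.10), Ddb2 (0.70 ± 0.10), Ppm1d (0.42 ± 0.091) and Fas (0.41 ± 0.10) were also higher, as was Tnfrsf10b, which overlapped and lost its call without replicate 1 or 2 of either group (adjusted p up to 0.135).

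Cdkn1a read 829.6, 979 and 950.2 in fresh basophils against 3043, 3026 and 3013 in mast cells (-1.71 ± 0.084, adjusted p = 2.17e-11). Zmat3 read 59.3, 60.7 and 53.6 against 435, 482 and 484 (-2.71 ± 0.10, adjusted p = 6.58e-13). Phlda3 was at background in fresh basophils (8.72, 4.78 and 7.78) and read 128, 134 and 145 in mast cells, at least 4.52-fold lower in basophils. The groups did not overlap in any of the 3. Trp53inp1 (-1.01 ± 0.075), Ccng1 (-0.95 ± 0.083), Bbc3 (-0.93 ± 0.10), Polk (-0.90 ± 0.086), Eda2r (-0.86 ± 0.12), Sesn1 (-0.70 ± 0.081), Rps27l (-0.55 ± 0.099) and Ei24 (-0.50 ± 0.089) were lower. Mdm2 did not differ measurably (1236, 1394 and 1188 against 1206, 1173 and 1485; -0.013 ± 0.11, 95% interval -0.24 to 0.22), but was called higher in basophils with no between-array normalisation (0.56, adjusted p = 5.93e-04), under which 16 members were higher and 8 lower. That setting also lost the calls of Sesn1 (-0.11, adjusted p = 0.361), Rps27l (-0.085, adjusted p = 0.644) and Ei24, which turned sign (0.047, adjusted p = 0.743), and median scaling that of Fas (0.36, adjusted p = 0.0751).

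Immediate early and handling genes were higher in fresh basophils than in mast cells (15 of 17 higher, 0 lower, median 3.82), with summed levels of 108715 to 116751 and 17574 to 19609.6, and 7 of the 17, Fos and Dusp1 among them, at background in mast cells. Btg2, Gadd45a and Plk3 are themselves known to be induced quickly by handling or stimulation. Neutrophil markers (12 of 13 higher, 0 lower; 113667 to 118871 and 6354 to 7738), monocyte and macrophage markers (10 of 11 higher, 1 lower) and eosinophil markers (5 of 6 higher, 1 lower) were higher in fresh basophils as well, and mast cell markers lower (0 of 11 higher, 9 lower), with the neutrophil marker S100a8 at background in both groups. The part of handling and of other cells in the p53 genes' differences was not tested.

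Wild type basophils after culture, without the drug, had more members above than below mast cells. Of 32 members, 16 were higher and 5 lower, where 16.9% of all probes were called higher and 22.3% lower, with a median of 0.41 against -0.045 over all probes. Among probes above background in either group, 16 of 29 members (55.2%) were higher against 26% of such probes, and 5 (17.2%) lower against 34.8%. The higher members again included genes of arrest and death, and the lower ones were Sesn1, Eda2r, Zmat3, Pidd1 and Phlda3.

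Perp was 5.27 ± 0.10 higher (adjusted p = 1.61e-16) and Plk3 2.78 ± 0.092 higher, at 506 ± 15.9 against 60.2 ± 9.36 (SD, n = 3). Btg2 was at least 5.45-fold higher, with a second probe at 0.24 (adjusted p = 0.315). Plk2, a kinase of the same family, read 237, 295 and 255 against 31.2, 46.1 and 33.7 (2.40 ± 0.10, adjusted p = 4.43e-12). Fas, the death receptor of the tumour necrosis factor receptor family, read 272, 261 and 275 against 49.4, 42.7 and 54.9 (2.14 ± 0.10, adjusted p = 1.54e-11). Pmaip1 read 282, 281 and 282 against 56.8, 60.4 and 77 (1.89 ± 0.10), and the groups did not overlap in these genes.

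Gadd45a (1.16 ± 0.081), Dram1 (1.14 ± 0.12), Sesn2 (0.88 ± 0.13), Apaf1 (0.74 ± 0.11), Mdm2 (0.68 ± 0.11, adjusted p = 6.46e-05), Trp53inp1, Xpc, Bbc3, Polk and Rrm2b (0.41 to 0.52) were also higher in cultured basophils. Sesn1 was lower, at 696, 647 and 637 against 1431, 1608 and 1500.3 (-1.18 ± 0.081, adjusted p = 2.21e-09). Eda2r (-1.05 ± 0.12), the ectodysplasin A2 receptor, Zmat3 (-0.97 ± 0.10), Pidd1 (-0.81 ± 0.096) and Phlda3 (-0.42 ± 0.098) were lower too. Cdkn1a was not called (-0.10 ± 0.084, 95% interval -0.28 to 0.076), and took the other sign with no between-array normalisation (0.20, adjusted p = 0.0488). Each of the 21 calls held when any of the 6 arrays was left out. With median scaling 13 were higher and 5 lower, without Polk (adjusted p = 0.107), Rrm2b (0.221) and Xpc (0.097), and with no between-array normalisation 21 and 4, without Phlda3 (0.318).

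Beside these differences, monocyte and macrophage markers were higher in cultured basophils (10 of 11 higher, 0 lower, median 3.78; 15037 to 16516 against 2637 to 2909.6, with Csf1r and Cd14 among 5 at background in mast cells). So were neutrophil markers (11 of 13 higher, 0 lower, median 2.08), basophil markers (11 of 14 higher, 3 lower) and handling genes (13 of 17 higher, 0 lower), while mast cell markers were lower (0 of 11 higher, 8 lower). Their part in the p53 genes' differences was not tested.

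Fresh and cultured wild type basophils were compared to see which p53 genes differed with 5 days of culture, although the cultured group carried creER and reporter alleles and the fresh group has no genotype label. Of 32 members, 16 were lower in fresh basophils and 8 higher, where 17.3% of all probes were called lower and 17.6% higher, with a median of -0.34 against -0.012 over all probes. Among probes above background in either group, 15 of 30 members (50%) were lower against 28% of such probes, and 8 (26.7%) higher against 28.4%. Of the 7 feedback genes 6 were lower in fresh basophils, Mdm4 at background among them, and Ppm1d was higher. The call of Rps27l, one of the 6, was lost under median scaling (-0.24, adjusted p = 0.283) and with no between-array normalisation (-0.19, adjusted p = 0.268). Cdkn1a and several genes of cell death were lower as well, whereas Btg2 was far higher.

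Cdkn1a read 829.6, 979 and 950.2 in fresh and 2856, 2914 and 2696 in cultured basophils (-1.60 ± 0.084, adjusted p = 9.21e-11). Mdm2 read 1236, 1394 and 1188 against 2079, 1962 and 2138 (-0.69 ± 0.11, adjusted p = 6.40e-05). Trp53inp1 read 357, 359 and 379 against 1134, 1027 and 1093 (-1.53 ± 0.075, adjusted p = 4.10e-11). Every fresh array of these genes lay below every cultured one. So did those of Fas (-1.73 ± 0.10), Zmat3 (-1.74 ± 0.10), Bbc3 (245, 209.9 and 201 against 573, 628 and 646; -1.43 ± 0.10) and Ccng1 (-1.02 ± 0.083), and Phlda3 was at least 3.24-fold lower in fresh basophils.

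Polk (-1.35 ± 0.086), Sesn2 (-1.06 ± 0.13), Plk2 (122 ± 8.53 against 262 ± 30), Pmaip1 (-0.83 ± 0.10), Xpc (-0.77 ± 0.13), Rps27l (-0.40 ± 0.099) and Ei24 (-0.33 ± 0.089) were lower in fresh basophils, Ei24 not with median scaling (adjusted p = 0.772) or no between-array normalisation (0.803). Btg2 was higher (3.91 ± 0.099, adjusted p = 1.14e-14), and here its second probe moved with it (3.99, adjusted p = 7.64e-12). Plk3 (0.79 ± 0.092), Gadd45a (0.72 ± 0.081), Apaf1 (0.66 ± 0.11), Ddb2 (0.65 ± 0.10), Pidd1 (0.63 ± 0.096), Sesn1 (0.47 ± 0.081) and Ppm1d (0.26 ± 0.091) were higher. Perp, bright in both groups, was not called (0.21 ± 0.10, 95% interval -0.012 to 0.43), and neither were Rrm2b, Ercc5, Dram1, Eda2r, Tnfrsf10b, Aen or Sesn3.

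Ppm1d lost its call whichever array was left out (adjusted p up to 0.115), and Mdm4 with any array but fresh replicate 3 left out (up to 0.167). The split was 11 higher and 14 lower with no between-array normalisation. Handling genes were higher in fresh basophils (13 of 17 higher, 0 lower; 108715 to 116751 against 40034 to 42489). Erythroid (5 of 6 higher, 1 lower), eosinophil (5 of 6 higher, 0 lower) and neutrophil markers (9 of 13 higher, 2 lower) were higher, and megakaryocyte markers lower (0 of 7 higher, 6 lower). Their part in the p53 genes' differences was not tested.

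**Figure D4:**
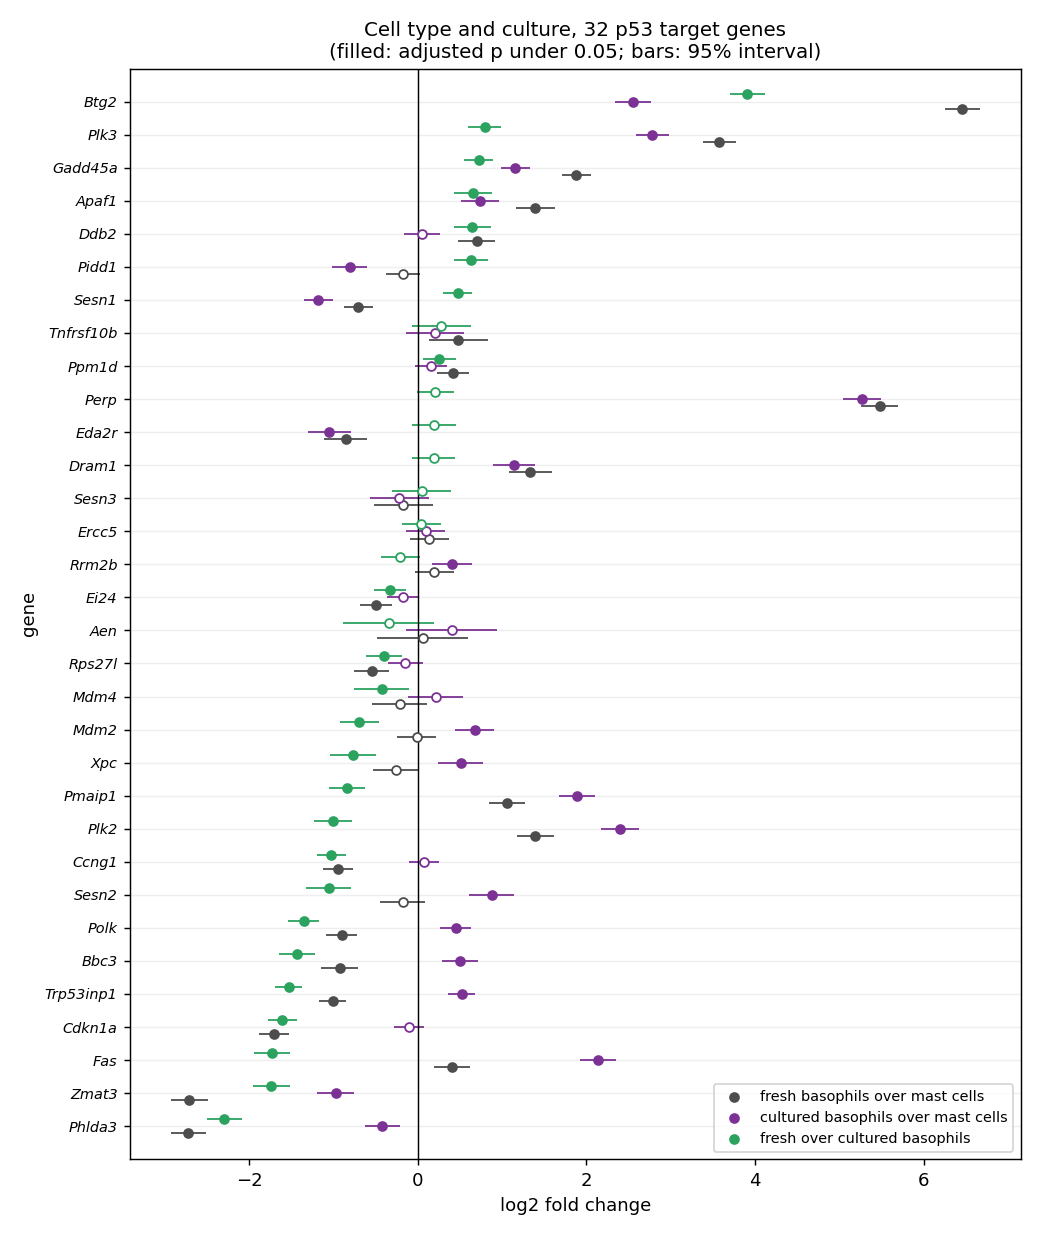
Log2 difference with 95% interval of each measured member for fresh basophils against mast cells, cultured wild type basophils against mast cells, and fresh against cultured wild type basophils; filled points passed at an adjusted p under 0.05. Perp lay above 5 in both comparisons with mast cells and at 0.21 between fresh and cultured basophils, and Cdkn1a lay at -1.71, -0.10 and -1.60. The comparisons share groups.

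Across the 6 groups, Cdkn1a was lowest in fresh basophils (919.6 ± 79.3, SD, n = 3) and highest in treated wild type basophils (4294 ± 176), with treated floxed cells next (3443 ± 92.2). Mast cells (3027 ± 15) and untreated wild type (2822 ± 113) and floxed basophils (2664 ± 228) lay between, and neither untreated wild type cells and mast cells nor the untreated genotypes differed by the test. Mdm2 ran from 1272 ± 108 in fresh basophils and 1288 ± 171 in mast cells through 1882 ± 153, 2012 ± 78.1 and 2059.9 ± 89.6 in untreated floxed, treated floxed and untreated wild type basophils to 2599 ± 301 in treated wild type basophils. Perp ran from 121 ± 11.2 in mast cells and 417 ± 49.7 in treated floxed basophils to 6079 ± 209 in fresh basophils. Rrm2b (472 to 701) and Ercc5 (1028 to 1429.5) had the narrow ranges of means, and each was called in 1 of the 8 comparisons.

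A further 40 p53 targets, of which 35 had a named probe, served as a second list. With the drug in wild type cells 6 of the 35 rose and 8 fell (2 and 10 with no between-array normalisation), with a median of -0.046. The called genes with the largest changes were the cytokine gene Lif (-1.32 ± 0.12), the nuclear body gene Pml (-0.79 ± 0.10), the metastasis suppressor Cd82 (0.68 ± 0.078) and the AMP kinase subunit Prkab1 (0.64 ± 0.089). In floxed cells 9 rose and 7 fell with the drug (3 and 7 with median scaling), with the receptor gene Notch1 at -1.11 ± 0.094. The interaction gave 5 higher and 3 lower (1 and 3 with median scaling, 8 and 1 with no between-array normalisation), with Lif at 0.85 ± 0.17. Of all probes 11.2% were called higher and 10.1% lower with the drug in wild type cells, and 9.92% and 9.67% in floxed cells. For the interaction the shares were 6.17% and 6.46%.

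Treated floxed against treated wild type cells gave 8 higher and 11 lower in the second list (12 and 11 with no between-array normalisation), with Lif at 1.59 ± 0.12 and the ubiquitin ligase gene Fbxw7 at 1.10 ± 0.10. Untreated cells gave 6 higher and 5 lower (1 and 7 with no between-array normalisation, 4 and 6 scaled to probes above background), with the matrix protein gene Thbs1 at -1.51 ± 0.11. Fresh against cultured wild type basophils gave 5 higher and 19 lower (7 and 15 with no between-array normalisation; median -0.44), with Thbs1 (-3.45 ± 0.11), Lif (-2.23 ± 0.12) and Cd82 (-1.80 ± 0.078) lower. Against mast cells, fresh basophils gave 12 higher and 10 lower and cultured wild type basophils 17 and 7 (18 and 5, and 19 and 4, with no between-array normalisation), with Notch1 at 2.29 ± 0.094 and 2.73 ± 0.094. Of all probes 15.9% were called higher and 14.9% lower between treated genotypes, and 8.54% and 7.27% between untreated ones. For fresh against cultured basophils the shares were 17.6% and 17.3%. Against mast cells they were 18.3% and 22.3% for fresh and 16.9% and 22.3% for cultured basophils.

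Cell cycle genes known to be repressed through p21 and the DREAM complex were the other downstream list, with 21 of 24 measured. Of the 21, 20 were higher in fresh than in cultured wild type basophils and 0 lower (median 2.49). The largest changes were in the proliferation marker Mki67 (3.09 ± 0.088) and the spindle genes Bub1b (3.09 ± 0.14) and Tpx2 (3.06 ± 0.084). Of all probes 17.6% were called higher and 17.3% lower there, and Cdkn1a lay at -1.60. Against mast cells 20 were higher and 0 lower in fresh basophils, where Cdkn1a lay at -1.71 and 18.3% and 22.3% of all probes were called. In cultured wild type basophils 0 were higher and 17 lower. There 16.9% of all probes were called higher and 22.3% lower, and Cdkn1a was not called (-0.10). In floxed against wild type cells 16 were higher and 0 lower without the drug, and 16 and 0 with it. Without the drug 8.54% of all probes were called higher and 7.27% lower, and Cdkn1a was not called (-0.085). With it 15.9% and 14.9% of all probes were called, and Cdkn1a lay at -0.32. The part of p21 in the levels of these genes was not tested.

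With the drug in wild type cells, where Cdkn1a rose, 2 of the 21 cell cycle genes rose and 2 fell (3 and 1 with median scaling, 1 and 6 with no between-array normalisation). Of all probes 11.2% were called higher and 10.1% lower there. The mitotic phosphatase gene Cdc25b lay at -0.77 ± 0.17. In floxed cells 1 rose and 5 fell (0 and 4 to 0 and 6 under the 3 other scalings), with Cdc25b at -0.97 ± 0.17. There 9.92% of all probes were called higher and 9.67% lower. The interaction gave 0 higher and 2 lower (1 and 1 with no between-array normalisation), where 6.17% of all probes were called higher and 6.46% lower.

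Upstream regulators of p53 and DNA damage signalling genes (33 of 36 measured) went both ways. With the drug in wild type cells 7 rose and 7 fell (4 and 11 with no between-array normalisation), led by the break-repair gene Nbn (-1.50 ± 0.36) and the ubiquitin ligase gene Rnf8 (0.88 ± 0.13, from background). In floxed cells 9 rose and 3 fell (3 and 4 with median scaling, 7 and 5 with no between-array normalisation, 8 and 5 scaled to probes above background), with the kinase gene Hipk2 at -0.75 ± 0.14. The interaction gave 4 higher and 1 lower (1 and 0 with median scaling, 5 and 0 with no between-array normalisation), with Nbn at 1.80 ± 0.51.

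Treated floxed against treated wild type cells gave 15 upstream genes higher and 7 lower, with Nbn at 1.88 ± 0.36 and the damage mediator Mdc1 at 1.25 ± 0.20. Untreated cells gave 6 higher and 3 lower (7 and 1 with median scaling, 5 and 4 under both other scalings). Fresh against cultured wild type basophils gave 16 higher and 4 lower, with the replication checkpoint gene Topbp1 at 1.95 ± 0.11. Against mast cells 11 were higher and 11 lower in fresh basophils (10 and 5 with median scaling, 16 and 3 with no between-array normalisation), with Cdkn2a, which encodes the Mdm2 inhibitor Arf, at -1.34 ± 0.11. Cultured wild type basophils gave 7 higher and 16 lower (4 and 16 with median scaling, 9 and 12 with no between-array normalisation). The shares of all probes given with the second list hold for the comparisons of the upstream genes too.

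**Figure D5:**
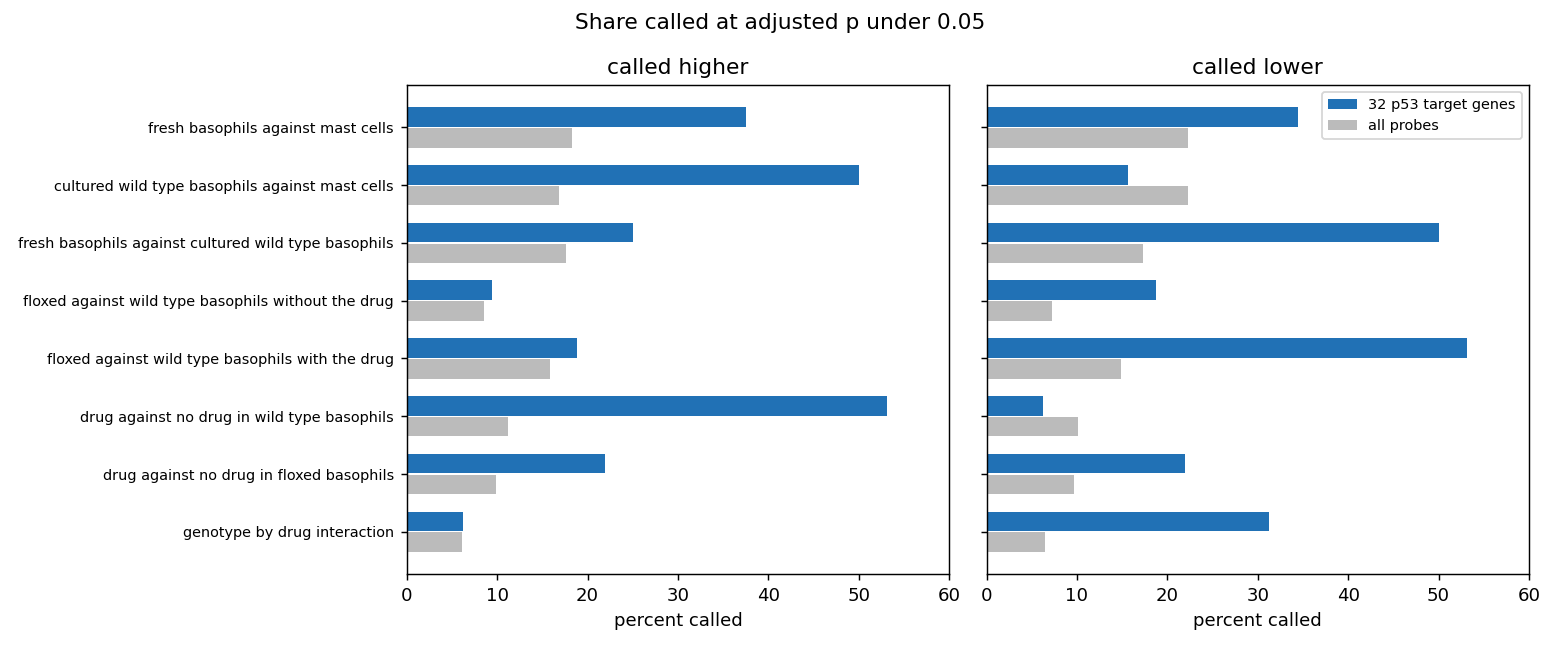
Percent of the 32 measured members and of all 26423 probes called higher or lower in each of the 8 comparisons. All probes include those at background in the groups compared, and the shares without them are given in the text. For the drug in wild type basophils 53.1% of members and 11.2% of all probes were called higher; for treated floxed against treated wild type basophils 53.1% of members and 14.9% of all probes were called lower.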

How the data were processed

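Labelled RNA was hybridised to single-dye arrays, 18 in 6 groups of 3. The authors deposited linear intensity values per probe, some below 0; the background correction and scaling before deposit are not stated in the labels. Of 26423 probes, 21876 had 1 gene symbol in the platform's annotation and 4547 had none. From the deposited intensities, values were quantile-normalised over all arrays, 16 was added and log2 taken, and a model of 6 group means was fitted (limma 3.58.1 under R 4.3.3: lmFit, contrasts.fit, eBayes; two-sided, Benjamini-Hochberg over all probes at 0.05). The added 16 understates changes of dim genes. Where 1 group was at background (under 30 on all 3 arrays), fold changes are lower bounds: the bright mean over the dim group's mean with each array raised to at least 30. The 8 comparisons share groups. The fit was tested on simulated data drawn from these arrays. The 3 lists of further targets, upstream regulators and p21-repressed cell cycle genes, a handling list and 10 lists of cell type markers were counted beside the members. Their counts are to be read beside the shares of all probes called, which are given with the members in each comparison. Those shares include probes at background, and the shares among probes above background are given there too. The members and lists were chosen with earlier results of these data known, as was the limit of 30. Cdkn1a and Mdm2 were named in every comparison, and otherwise up to 5 members each way with a log2 change of at least 0.58, a call and no overlap of arrays; further members are named because each member is described. From other lists at most 4 called genes with the largest changes were named. Alternatives were median scaling, no between-array normalisation, scaling on probes above background, an offset of 50, leaving out the dimmest 30% of probes, an intensity trend, a replicate block, the mean of a gene's probes, only the arrays of a comparison, each array left out, and a minimum of 1.5-fold. Within groups, the median SD of log2 values of probes above 100 was 0.0801 to 0.104.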

Additional observations from a re-analysis of the deposited data

Results flagged for a closer look

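The effect of 4-hydroxytamoxifen differed between floxed and wild type basophils in 12 of the 32 members, by the limma interaction test at an adjusted p under 0.05. Of all probes 6.17% were called higher and 6.46% lower, and 9.93% and 10.4% of those above background in any of the 4 groups. Perp differed most (-2.36, floxed minus wild type effect), followed by Gadd45a (-1.82), Btg2 (-1.47), Pmaip1 (-1.39) and Sesn2 (-1.10). A second Btg2 probe, at background in all 4 groups, was not called (-0.36, adjusted p = 0.405). The differences were smaller for the apoptosome gene Apaf1 (-0.74), the sestrin Sesn1 (-0.57), the phosphatase gene Ppm1d (-0.56), the autophagy gene Ei24 (-0.56) and Dram1 (-0.53, adjusted p = 0.0491). The Mdm2-binding Rps27l differed the other way (0.78), and so did the death receptor Tnfrsf10b (0.79), which was at background in all 4 groups. The split was 0 higher and 9 lower with median scaling, which lost Rps27l (adjusted p = 0.171). With no between-array normalisation it was 3 and 5, and only Perp, Gadd45a, Btg2, Pmaip1 and Sesn2 stayed lower. With 1 array left out, Dram1 kept its call in 2 of 12 fits and Tnfrsf10b in 6 of 12.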

How the results depend on the processing

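Of 1179 alternatives over 75 results for named genes, 1150 kept the call or its absence, 27 lost the call and 2 reversed. Apart from those of Cdkn1a and Mdm2, the results were picked as large calls in these data, so the number kept is no measure of robustness. The lost and reversed ones fell in 8 results, all of Cdkn1a, Mdm2, Rps27l or Tnfrsf10b. Mdm2 with the drug in wild type cells lost its call in 9 of 15 alternatives. Where neither fit passed, a result counted as kept even if its sign turned. Cdkn1a between untreated genotypes was such a result (-0.085, and 0.12 with median scaling). Both reversals came with no between-array normalisation. Mdm2 was then called higher in fresh basophils than in mast cells (0.56), and Cdkn1a higher in cultured basophils than in mast cells (0.20). The cause was not tested. Requiring at least 1.5-fold left 3 members called between untreated genotypes (1 higher, 2 lower), 14 between treated genotypes (3 higher, 11 lower), 9 with the drug in wild type cells (7 higher), 7 in floxed cells (2 higher) and 6 lower in the interaction. Median scaling left 2 lower between untreated genotypes, 3 higher between treated genotypes, 9 called with the drug in floxed cells (2 higher) and 0 higher in the interaction. No between-array normalisation gave 8 higher and 5 lower with the drug in wild type cells and 5 lower in the interaction. With 1 array left out, 3 to 5 members were higher between treated genotypes and 1 to 2 in the interaction. With no between-array normalisation the median of all probes moved to 0.16 for fresh and 0.11 for cultured basophils against mast cells. It moved to 0.12 for the interaction, and to -0.13 there with median scaling. For the drug in wild type cells it moved from 0.0061 to -0.085 with no between-array normalisation and to 0.069 with median scaling. With the replicate block the called members numbered 23, 21 and 24 in the comparisons of cell type and culture, 9 and 23 between genotypes, 17 and 14 for the drug and 11 for the interaction. The member counts under these settings stand without the shares of all probes called under them, so they do not set the members apart from other genes. Deviations of same-numbered arrays of different groups correlated at -0.39 to 0.16, over 0.1 in 9 of 45 pairs. For arrays with different numbers this was -0.30 to 0.35, over 0.1 in 20 of 90 pairs. These values cannot show whether arrays with the same number share an animal or a culture. Dim members (Aen, Mdm4, Sesn3, Tnfrsf10b, Eda2r) lay too near background for small changes to be measured.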

Other observations

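Further marker lists gave these counts. Basophil markers were 11 of 14 higher and 1 lower in fresh basophils against mast cells and 3 higher and 7 lower in treated floxed against treated wild type basophils. B cell markers were 0 of 8 higher and 3 lower in that second comparison, and T and NK cell markers 1 of 9 higher and 1 lower.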
